A study of Mus musculus with 6 samples.

Results

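The genes described here are 10 transcription factors and chromatin proteins linked to the epithelial-to-mesenchymal transition (EMT): Snai1, Snai2, Snai3, Zeb1, Zeb2, Twist1, Twist2, Hmga2, Prrx1 and Sox4. They were taken by symbol from a table of raw read counts of 21240 genes, which holds all 10 of them. NMuMG is an epithelial line from normal mouse mammary gland that undergoes EMT when exposed to TGFβ1. All cells were kept for 6 h without serum before the treatment and then received TGFβ1 at 5 ng/ml for 2 h, the same dose for 12 h, or vehicle with bovine serum albumin for 2 h. Each of these 3 groups had 2 biological replicates, 6 stranded total RNA libraries in all, and no genotype or strain differed between them. Vehicle was sampled at 2 h and not at 12 h, so that cells at 12 h had also gone without serum for longer than their controls. The comparisons of 2 h and of 12 h with vehicle share the 2 vehicle libraries.

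In an EMT, epithelial cells lose cell-cell junctions and apical-basal polarity and take on the shape and motility of mesenchymal cells. The Snail proteins (zinc fingers), the Zeb proteins (zinc fingers with a homeodomain) and the Twist proteins (basic helix-loop-helix) are the factors best known to drive this change; Snail and Zeb proteins repress E-cadherin and other epithelial genes by binding E-boxes. TGFβ acts through receptor kinases that phosphorylate Smad2 and Smad3, which enter the nucleus with Smad4. Hmga2 is an architectural protein of the minor groove of AT-rich DNA, Sox4 an HMG-box factor of progenitor cells and Prrx1 a paired-related homeobox factor of mesenchyme, and each has been tied to TGFβ-driven EMT.

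Total counts ran from 14705886 to 23786993 per library and TMM factors from 0.961 to 1.07. The median absolute log2 difference between the replicates over the 11080 genes tested was 0.152 with vehicle, 0.220 at 2 h and 0.134 at 12 h. Of the 7 epithelial markers, 5 passed the filter on low counts (2 CPM or more in 2 or more libraries), and the keratins Krt8, Krt18 and Krt19 and E-cadherin (Cdh1) were abundant. The summed level of the epithelial list was 4959 to 5779 CPM with vehicle, 6439 to 6473 CPM at 2 h and 10320 to 10367 CPM at 12 h, and its part in the changes given here was not tested. The list did not move together. From vehicle to 12 h, the mean of Krt18 went from 2148 to 6183 CPM and that of Krt8 from 1073 to 3329 CPM. Krt19 went from 1755 to 455 CPM and Cdh1 from 392 to 372 CPM. Epcam and Cldn3, both standard epithelial markers, were near 0, with 2 to 16 and 0 to 1 counts per library. Markers of other cell types summed to at most 11.5 CPM (basal or myoepithelial, 1 of 3 tested), 3.83 CPM (fibroblast, 1 of 4), 1.95 CPM (endothelial, 0 of 4) and 0.0504 CPM (adipocyte, 0 of 2) in any library. The leukocyte sum (1 of 5 tested) was at least 4.14 CPM and below 11.5 CPM in all 6 libraries. The endothelial sum went from 0.176 and 0.255 CPM with vehicle to 1.74 and 1.95 CPM at 12 h, and the basal sum from 2.29 and 4.94 CPM with vehicle to 7.89 and 11.5 CPM at 2 h and 5.05 and 8.47 CPM at 12 h. Their part in the results was not tested. The endothelial sum at 12 h was mostly Cdh5, with 1 and 2 counts with vehicle and 39 and 36 at 12 h. Pecam1, Kdr and Tek had 0 to 2 counts per library. The basal sum was mostly Krt14, with 30 to 219 counts per library and a log2FC at 2 h of 1.43 (adjusted p = 0.0992, or 0.0305 under the replicate block), while Trp63 had 0 to 2 counts. The leukocyte sum was mostly Cd68, with 95 to 124 counts per library and a log2FC at 12 h of -0.30 (adjusted p = 0.344), while the T-cell gene Cd3e was at 0 in all 6 libraries, and the adipocyte marker Plin1 had 0 to 1 counts. As in any bulk sample, more cells with a transcript and more of it per cell cannot be told apart.

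Snai1, Zeb1, Zeb2, Hmga2 and Sox4 were higher at 2 h than with vehicle, and these 5 together with Snai3 were higher at 12 h. Snai2 and Twist2 passed the filter on low counts without a call against vehicle at either time, and Twist1 and Prrx1 stayed below the filter. A call is a p under 0.05 from the quasi-likelihood test of edgeR, after Benjamini-Hochberg adjustment over all 11080 genes tested. At 2 h, 5 of the 10 members (8 of them tested) were called higher, against 9.91% of all genes tested, and 0 were called lower, against 5.25%. At 12 h, 6 were called higher, against 21.8% of all genes, and 0 lower, against 21.5%. The filter itself bears on these counts: Snai1 and Snai2 passed it only through treated libraries, so that Snai1 had to differ to be tested, and Prrx1, which was lower in the treated libraries, did not pass. The counts, and the medians given next, are thus a description of the genes tested and support nothing about all 10. No member was lower at either time by an unadjusted p under 0.05 either, and limma-voom and DESeq2 also called 0 lower. Between 2 h and 12 h, Zeb1 and Zeb2 rose further, against 15.2% of all genes called higher at 12 h than at 2 h, and Twist2 fell, against 18.9% called lower. The median log2FC of the 8 genes tested was 0.90 at 2 h and 1.60 at 12 h, beside -0.01 and 0.02 over all genes tested. The count of 5 at 2 h came to 1 without vehicle replicate 2, 3 without vehicle replicate 1, 2 without the 12 h replicate 1, 3 without the 12 h replicate 2 and 2 when only the 2 groups compared were fitted, while the count of 6 at 12 h held without each library in turn. Total counts in place of TMM factors shifted the median of all genes to -0.12 at 2 h and -0.11 at 12 h. With them the calls over all genes were 854 higher and 974 lower at 2 h and 1831 and 3045 at 12 h, beside 1098 and 582 and 2414 and 2385 with TMM factors, and no member changed direction in any comparison.

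**Figure D1:**
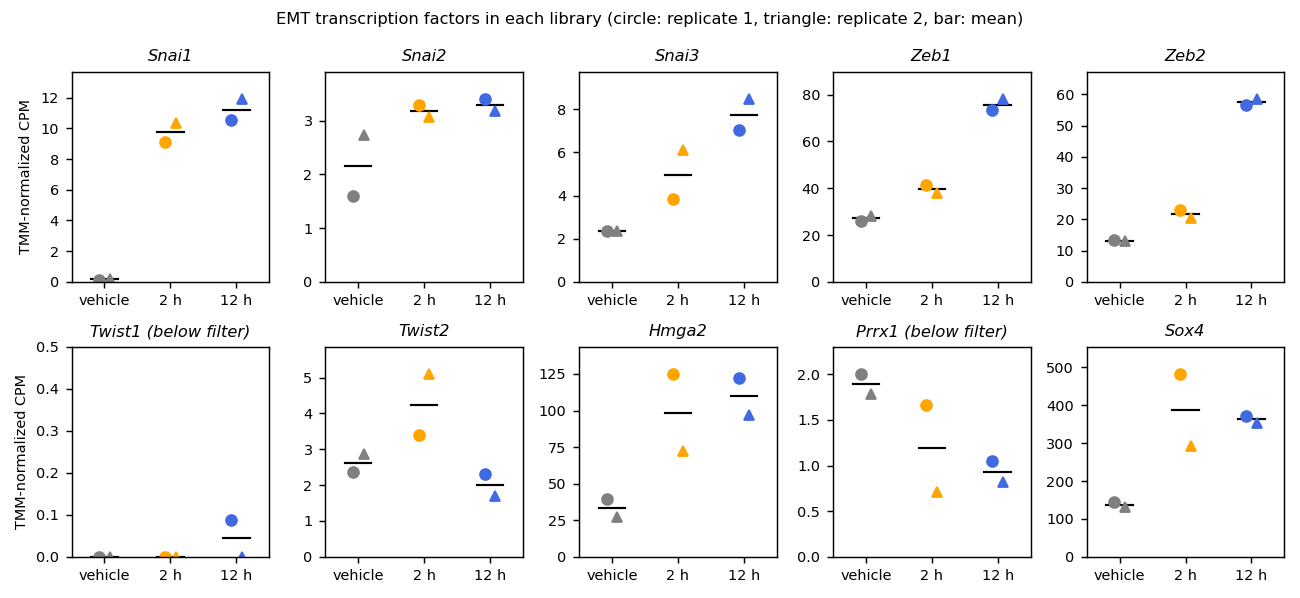
Levels of the 10 EMT transcription factors in TMM-normalized CPM (read counts scaled to library size), 1 panel per gene with its own axis from 0, for vehicle, 2 h and 12 h of TGFβ1. Circles are replicate 1, triangles replicate 2 and bars the mean. Snai1 sits below 0.2 CPM in both vehicle libraries and above 9 CPM in the 4 treated ones, and Zeb2 steps up at each time, to 56.5 and 58.4 CPM at 12 h.

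Snai1, the founding repressor of the Snail family, was nearly silent with vehicle and was the member with the largest relative change. The vehicle libraries held 2 and 3 counts of it, the 2 h libraries 181 and 206 and the 12 h libraries 242 and 232. These are 0.118 and 0.191 CPM in the vehicle libraries, 9.15 and 10.4 CPM at 2 h and 10.5 and 11.9 CPM at 12 h. The vehicle libraries lay far below all 4 treated ones, which differed little among themselves. From the summed counts, the ratio to vehicle was 63.9 at 2 h, with a 95% interval of 27.1 to 198 for counting error only, and 73.0 at 12 h, with an interval of 31.1 to 226. The adjusted p was 0.000212 at 2 h and 4.90e-05 at 12 h (edgeR's quasi-likelihood test), and both calls held in all 14 alternatives that kept the gene. Between 12 h and 2 h its log2FC was 0.20 (95% interval -0.25 to 0.65, adjusted p = 0.450), so that no further change was detected. Snai1 lies at chr2:167363695-167368314 on the plus strand of NCBIM37 (mm9), with a single annotated transcript of 1621 bases.

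The RefSeq window from 250 bases before to 50 bases after the start of Snai1 is shown because this gene had the largest ratio to vehicle among the members. Capitals mark the E-box CACCTG or CAGGTG, which Snail and Zeb proteins bind, the Smad box GTCTG or CAGAC, and the AP-1 site TGANTCA, searched on both strands. The window was placed at chr2:167363445-167363744 (plus strand) by its exact match in NCBIM37.
Snai1: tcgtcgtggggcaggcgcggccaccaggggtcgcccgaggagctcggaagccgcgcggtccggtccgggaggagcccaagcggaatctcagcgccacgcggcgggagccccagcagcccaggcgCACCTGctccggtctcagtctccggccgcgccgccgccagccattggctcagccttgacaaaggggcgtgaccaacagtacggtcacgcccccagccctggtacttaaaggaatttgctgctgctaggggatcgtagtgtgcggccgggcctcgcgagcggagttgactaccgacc
It held 1 E-box, ahead of the start, and none of the Smad boxes or AP-1 sites, while 20.2% of all 32851 RefSeq windows of this length held the E-box. A GC-rich Smad motif, GGCGC or GCGCC, which is not in capitals, matched 4 times in it and at least once in 36.9% of all windows.

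Snai2, known as Slug, is the family member of the neural crest and of basal mammary cells. It had 1.59 and 2.74 CPM in the vehicle libraries, 3.29 and 3.07 CPM at 2 h and 3.40 and 3.18 CPM at 12 h, from 27 to 78 counts per library. Every treated library was above both vehicle libraries, but the vehicle libraries differed from each other by more than the treated ones did. The log2FC was 0.56 (SE 0.312, adjusted p = 0.286) at 2 h and 0.61 (SE 0.310, adjusted p = 0.159) at 12 h. The 95% interval at 12 h, from -0.13 to 1.35, holds 0. These estimates rest on the vehicle library used: the log2FC was 0.21 at 2 h and 0.26 at 12 h without vehicle replicate 1, and 1.00 and 1.04 without vehicle replicate 2, with no call in any of these.

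Snai3, known as Smuc, is the least studied Snail factor. It had 2.35 and 2.36 CPM in the vehicle libraries, 3.84 and 6.10 CPM at 2 h and 7.05 and 8.47 CPM at 12 h. The groups did not overlap and stood in the order of vehicle, 2 h and 12 h. At 12 h the log2FC was 1.72 (SE 0.287, adjusted p = 0.00356), and this call held in all alternatives. At 2 h it was 1.08 (SE 0.290), which missed the threshold at an adjusted p of 0.0530. With the replicate number as a block (replicate block), the adjusted p at 2 h was 0.00998 and that of 12 h against 2 h moved from 0.110 to 0.0239. The 2 h call also appeared with DESeq2 (adjusted p = 0.0413), with at least 10 counts in every library (0.0477), with no filter on low counts (0.0404) and without the 2 h replicate 1 (log2FC 1.35, adjusted p = 0.0159). The comparison of 12 h with 2 h was called without the 2 h replicate 2 (log2FC 1.01, adjusted p = 0.0328). Both estimates kept their sign but were smaller with the other 2 h library left out. The log2FC was 0.71 at 2 h without the 2 h replicate 2 and 0.35 between the times without the 2 h replicate 1, neither of them called.

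Zeb1 and Zeb2, related factors that repress E-cadherin and are held down in epithelial cells by miR-200, rose in steps, with the larger part of the change after 2 h. Zeb1 had 25.9 and 28.3 CPM in the vehicle libraries, 41.2 and 38.0 CPM at 2 h and 73.4 and 78.0 CPM at 12 h. Zeb2 had 13.5 and 12.9 CPM in the vehicle libraries, 23.1 and 20.4 CPM at 2 h and 56.5 and 58.4 CPM at 12 h. For both genes the 3 groups were apart from each other, with replicates closer together than the groups. Zeb1 had a log2FC of 0.55 (SE 0.111, adjusted p = 0.0216) at 2 h and 1.48 (SE 0.111, adjusted p = 0.000161) at 12 h. Zeb2 had a log2FC of 0.72 (SE 0.123, adjusted p = 0.0114) at 2 h and 2.12 (95% interval 1.82 to 2.42, adjusted p = 7.08e-05) at 12 h. From 2 h to 12 h, Zeb1 rose by a log2FC of 0.93 (SE 0.109, adjusted p = 0.00143) and Zeb2 by 1.40 (SE 0.120, adjusted p = 0.000553). The calls at 12 h and between the times held in all 15 alternatives.

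The 2 h calls of the Zeb genes were less firm. That of Zeb1 was lost without vehicle replicate 1 (adjusted p = 0.150), vehicle replicate 2 (0.0804), the 12 h replicate 1 (0.0688) or the 12 h replicate 2 (0.0683), with a log2FC between 0.47 and 0.61 whichever library was left out. That of Zeb2 was lost without vehicle replicate 1 (adjusted p = 0.0720), vehicle replicate 2 (0.0786) or the 12 h replicate 1 (0.0501), with a log2FC between 0.61 and 0.81. Fitting only the 2 groups compared also lost both (0.0754 and 0.0616). Zeb2 lies at chr2:44839154-44972915 on the minus strand. Zeb2os, an RNA transcribed antisense beside the Zeb2 start, had 9 counts over the 6 libraries, in counts that the study assigned by strand.

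Zeb2 has 4 windows in RefSeq, and the farthest downstream is shown because it alone among the members' windows held AP-1 sites, 2 of them. It lies at chr2:44965748-44966047 on the minus strand, 7118 bases from the start that GENCODE gives the gene.
Zeb2: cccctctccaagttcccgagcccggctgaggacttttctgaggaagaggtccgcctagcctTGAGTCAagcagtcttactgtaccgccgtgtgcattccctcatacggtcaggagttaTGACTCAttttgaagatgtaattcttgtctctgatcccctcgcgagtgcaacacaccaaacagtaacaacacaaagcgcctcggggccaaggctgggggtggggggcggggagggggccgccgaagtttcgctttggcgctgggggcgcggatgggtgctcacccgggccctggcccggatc
The AP-1 letters occur in 7.81% of all windows of this length, and a match describes letters only.

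Twist1 and Twist2 are basic helix-loop-helix factors of mesoderm. Twist1 had 0 counts in both vehicle and both 2 h libraries, and 2 and 0 counts in the 12 h libraries. All these values are under 3 counts, which correspond to 0.131 to 0.191 CPM in these libraries, so that no fold is given. Twist2 had 2.35 and 2.87 CPM in the vehicle libraries, 3.39 and 5.09 CPM at 2 h and 2.31 and 1.69 CPM at 12 h. Its highest values were at 2 h, and both 12 h libraries lay below both vehicle libraries by a small margin. Against vehicle the log2FC was 0.70 (SE 0.313, adjusted p = 0.194) at 2 h and -0.37 (SE 0.325, adjusted p = 0.391) at 12 h, with a range of 0.38 (without the 2 h replicate 2) to 0.95 and of -0.63 (without the 12 h replicate 1) to -0.19 (without the 12 h replicate 2) when each library was left out. Between 2 h and 12 h Twist2 fell by 1.08 on the log2 scale (SE 0.313, adjusted p = 0.0386). It was the sole member called lower in any comparison, from 33 to 101 counts per library. That call was lost in 7 of 15 alternatives, among them without vehicle replicate 1 (adjusted p = 0.0571), vehicle replicate 2 (0.0573), the 2 h replicate 2 (0.147), the 12 h replicate 1 (0.0950) or the 12 h replicate 2 (0.193), while the log2FC stayed between -1.34 and -0.75.

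Hmga2 and Sox4 were the most abundant members, and both were raised by 2 h with no further change detected by 12 h. Hmga2 had 39.6 and 27.3 CPM in the vehicle libraries, 125 and 72.0 CPM at 2 h and 122 and 96.9 CPM at 12 h. Sox4 had 144 and 131 CPM in the vehicle libraries, 482 and 292 CPM at 2 h and 371 and 354 CPM at 12 h. All treated libraries of both genes were above the vehicle libraries, and the 2 h and 12 h libraries overlapped. The log2FC of Hmga2 was 1.55 (SE 0.301, adjusted p = 0.0182) at 2 h and 1.71 (SE 0.302, adjusted p = 0.00446) at 12 h. That of Sox4 was 1.49 (SE 0.227, adjusted p = 0.00754) at 2 h and 1.40 (SE 0.227, adjusted p = 0.00316) at 12 h. Between 12 h and 2 h the log2FC was 0.16 for Hmga2 (95% interval -0.53 to 0.85) and -0.09 for Sox4 (-0.62 to 0.44), so that neither a rise nor a fall was detected.

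Replicate 1 was the higher library of both genes in every group. The log2 difference between the replicates was 0.53 with vehicle, 0.79 at 2 h and 0.34 at 12 h for Hmga2, and 0.14, 0.72 and 0.07 for Sox4. At 2 h both exceed the median difference over all genes of 0.220 given above. The 2 h call of Hmga2 was lost without vehicle replicate 2 (log2FC 1.31, adjusted p = 0.0946), the 12 h replicate 1 (0.0576) or the 12 h replicate 2 (0.0576) and when only the 2 groups compared were fitted (0.0593), and that of Sox4 without vehicle replicate 2 (log2FC 1.42, adjusted p = 0.0537). Sox4 was called lower at 12 h than at 2 h without the 2 h replicate 2 (log2FC -0.41, adjusted p = 0.0415) and had a log2FC of 0.31 without the 2 h replicate 1, so the direction between the times rests on which 2 h library is kept. Hmga2 lies at chr10:119798331-119913525 and Sox4 at chr13:29040788-29045582, both on the minus strand.

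The window of Sox4 is shown because it held the Smad box on its coding strand 2 times, a motif present in 49.6% of all windows. It lies at chr13:29045519-29045818 on the minus strand.
Sox4: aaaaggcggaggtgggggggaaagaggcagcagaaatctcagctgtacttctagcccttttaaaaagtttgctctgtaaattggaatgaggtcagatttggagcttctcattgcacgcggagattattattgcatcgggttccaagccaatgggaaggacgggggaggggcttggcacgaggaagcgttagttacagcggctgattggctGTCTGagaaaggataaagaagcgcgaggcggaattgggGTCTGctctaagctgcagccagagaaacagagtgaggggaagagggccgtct
Among the 7 members with a window in RefSeq (Snai1, Zeb2, Twist1, Twist2, Hmga2, Prrx1 and Sox4), the Smad box was found in 3 (Twist1, Prrx1 and Sox4), the GC-rich motif in 4 (Snai1, Zeb2, Twist1 and Twist2), and the E-box and the AP-1 site in 1 each. Hmga2, called at both times, held none of these motifs, which says only that the letters are not in this window.

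Prrx1 went the other way in its counts. It had 2.00 and 1.78 CPM in the vehicle libraries, 1.67 and 0.706 CPM at 2 h and 1.04 and 0.821 CPM at 12 h, from 34 down to 14 counts. All 4 treated libraries were below both vehicle libraries, and the 2 h libraries spread widely. With no filter on low counts, its log2FC was -0.67 (SE 0.440, adjusted p = 0.447) at 2 h and -1.01 (SE 0.448, unadjusted p = 0.0513, adjusted p = 0.126) at 12 h, so that no change was called. Prrx1 lies at chr1:165175247-165243841 on the minus strand.

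**Figure D2:**
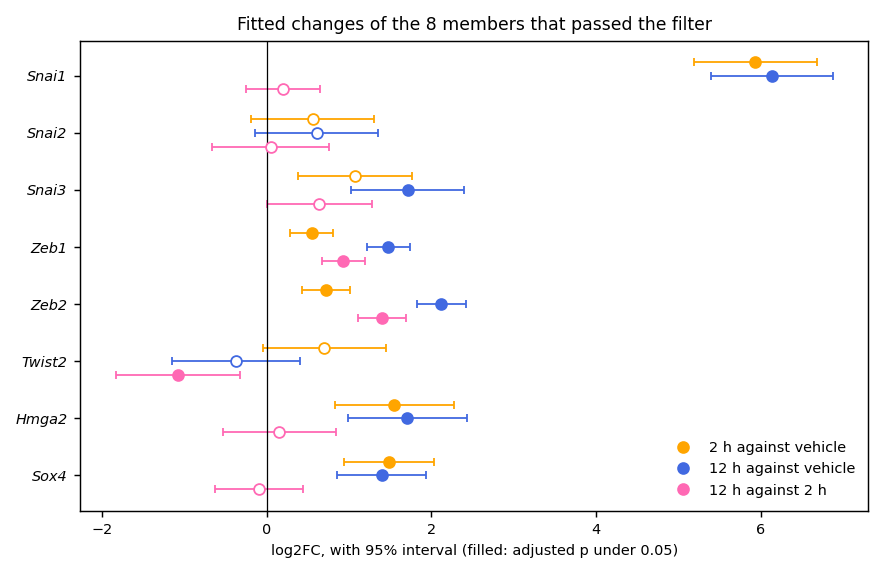
log2FC of the 8 members that passed the filter, with 95% intervals, for 2 h against vehicle (orange), 12 h against vehicle (blue) and 12 h against 2 h (pink). Filled points have an adjusted p under 0.05. Snai1 stands alone near 6 at both times, Zeb1 and Zeb2 have filled points in all 3 comparisons, and Twist2 has its filled point, at -1.08, between the times.

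Levels of different genes can be compared per kb of annotated exon. With vehicle, Sox4 led with 28.7 ± 1.99 CPM per kb (SD, n = 2), followed by Hmga2 with 4.94 ± 1.29, Zeb1 with 2.79 ± 0.169, Twist2 with 1.96 ± 0.272, Snai3 with 1.48 ± 0.00125, Snai2 with 1.06 ± 0.400, Zeb2 with 0.859 ± 0.0251, Prrx1 with 0.171 ± 0.0139 and Snai1 with 0.0952 ± 0.0320. The libraries of Snai2 and Zeb2 overlapped, and those of all other neighbors in this order were apart. At 2 h Snai1 stood behind Sox4 and Hmga2, with 6.03 ± 0.537 CPM per kb, above Zeb1 with 4.08 ± 0.237, and Twist2 and Snai3 overlapped at 3.19 ± 0.906 and 3.13 ± 1.00. At 12 h the order was Sox4 (75.7 ± 2.50), Hmga2 (16.2 ± 2.67), Zeb1 (7.79 ± 0.337), Snai1 (6.92 ± 0.597), Snai3 (4.88 ± 0.629), Zeb2 (3.74 ± 0.0889), Snai2 (1.62 ± 0.0747), Twist2 (1.51 ± 0.327) and Prrx1 (0.0843 ± 0.0143), where Snai2 and Twist2 overlapped. Sox4 made up 67.6% and 68.7% of the summed level of the 10 genes with vehicle, 65.9% and 73.3% at 2 h, where the libraries lay on either side of the vehicle ones, and 63.9% at 12 h in both libraries. Snai1 went from 0.166% and 0.292% of that sum with vehicle to 4.12% and 6.93% at 2 h and 5.36% and 6.35% at 12 h. Dividing by the longest transcript instead of all exons placed Zeb1 above Snai1 at 2 h and Zeb2 above Snai3 at 12 h and above Snai2 with vehicle and at 2 h, since it left the lengths of Snai1, Snai2, Snai3, Twist1, Twist2 and Sox4 as they were and shortened those of the others.

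**Figure D3:**
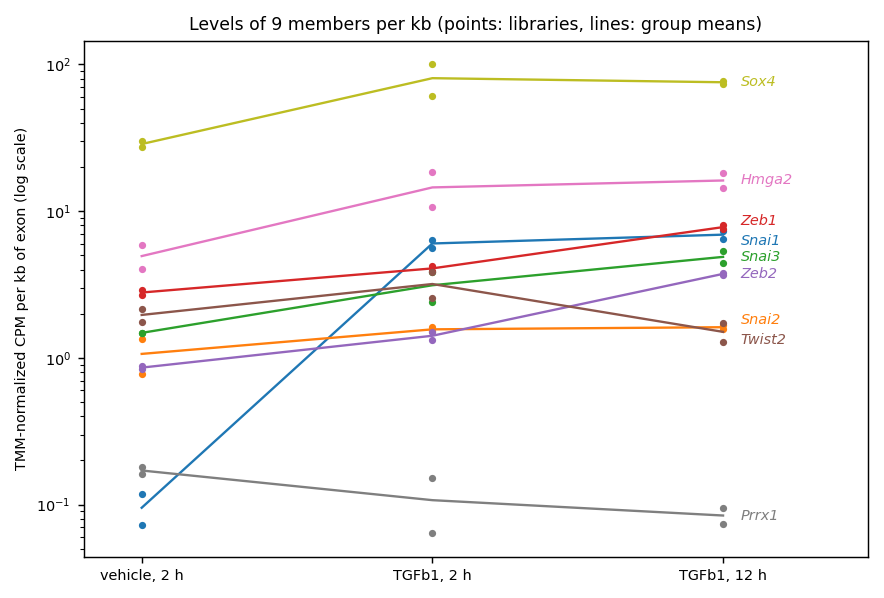
Levels of 9 members in CPM per kb of exon on a log axis. Points are the 2 libraries of each group and lines join the group means; Twist1, with 0 in all but 1 library, cannot be drawn on a log axis. Snai1 climbs from 0.0952 to 6.03 CPM per kb by 2 h and crosses 6 other members, Zeb2 climbs mostly after 2 h, and Prrx1 stays lowest among the genes drawn at 2 h and 12 h.

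Among 6 close relatives of the members, Prrx2 and Sox11 passed the filter and both rose at both times (against 9.91% and 21.8% of all genes), whereas Scrt1, Scrt2, Sox12 and Hmga1 were below it. Prrx2, the paralog of Prrx1, had 11.2 and 8.53 CPM in the vehicle libraries, 29.9 and 32.3 CPM at 2 h and 20.5 and 26.1 CPM at 12 h. The log2FC of Prrx2 was 1.66 (SE 0.193, adjusted p = 0.00286) at 2 h and 1.24 (SE 0.192, adjusted p = 0.00264) at 12 h, beside the negative estimates of Prrx1. Sox11, in the same SoxC group as Sox4, had 15.6 and 17.1 CPM in the vehicle libraries, 79.0 and 43.9 CPM at 2 h and 70.2 and 48.4 CPM at 12 h, with a log2FC of 1.91 and 1.86. As for Hmga2 and Sox4, the treated replicate 1 libraries of Sox11 were the higher ones. Without vehicle replicate 1 or vehicle replicate 2, 1 of the 2 relatives was called at 2 h. Hmga1 had 9 to 17 counts per library; a count of uniquely mapped reads can lose those shared with near-identical copies, so its level is uncertain.

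Of 16 other factors linked to EMT, 7 were tested, of which 4 rose at 2 h and 5 at 12 h, against 9.91% and 21.8% of all genes tested. Runx1, a Runt factor that works with Smads, had 16.5 CPM on average with vehicle, 164 CPM at 2 h and 153 CPM at 12 h (log2FC 3.32 and 3.21). Foxq1, a forkhead repressor of E-cadherin, had a log2FC of 2.03 and 2.40 and Runx2 of 1.48 and 0.63 at 2 h and 12 h. Ets1, named after its values were seen, was the other called at both times (log2FC 2.01 and 1.11). Foxc1 (log2FC at 12 h 1.11, adjusted p = 0.0973, or 0.0341 under the replicate block) and Sox9 (-0.07) were not called. Without the 12 h replicate 1, 3 were called at 12 h. Foxc2, Gsc, Lef1, Msx1, Msx2 and Tbx3, further factors used as EMT markers, had at most 2 counts in any library.

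Twist proteins bind DNA as dimers with E proteins, which Id proteins in turn sequester, and the 6 tested genes of this list split in 2 directions at 12 h, when 21.8% of all genes were called higher and 21.5% lower. The E proteins Tcf3 (log2FC 0.79), Tcf12 (0.50) and Tcf4 (0.41) rose and Id2 (-3.66), Id3 (-2.05) and Id1 (-1.84) fell. Id2 went from 367 and 207 CPM with vehicle to 124 and 58.0 CPM at 2 h and 21.7 and 23.7 CPM at 12 h, and the groups did not overlap. At 2 h, Id2 (log2FC -1.66, adjusted p = 0.0362) and Id3 (-1.06, adjusted p = 0.00494) had fallen, Tcf3 had risen (0.52, adjusted p = 0.0338), and Id1 was at 0.09 (adjusted p = 0.710). The call of Tcf3 at 2 h was lost without vehicle replicate 1, vehicle replicate 2, the 2 h replicate 2, the 12 h replicate 1 or the 12 h replicate 2 and with total counts. At 12 h, 1 E protein was called without vehicle replicate 2 or without the 12 h replicate 1, while at 2 h 1 Id gene was called without vehicle replicate 1, the 12 h replicate 1 or the 12 h replicate 2.

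The 16 corepressors and chromatin partners of Snail and Zeb proteins all passed the filter, and 5 rose at 2 h and 7 at 12 h, against 9.91% and 21.8% of all genes tested. Those with the largest log2FC at 12 h were Rcor2 (3.21), a CoREST protein that went from 1.00 and 1.78 CPM under vehicle to 11.6 and 14.1 CPM at 12 h, and the LIM proteins Ajuba (1.56) and Wtip (1.35), which bind the SNAG domain of Snail. Rcor2 passed the filter only through treated libraries, so that it had to be higher there to be tested. Suv39h1 (-0.74), Suz12 (-0.49) and Hdac1 (-0.27) had the lowest estimates, none of them called (adjusted p = 0.107, 0.0743 and 0.381). With the replicate block Suv39h1 and Suz12 were called lower (adjusted p = 0.0216 and 0.00670). The 2 h count fell without either vehicle replicate, as did the calls over all genes. Kdm1a, Ctbp1, Ctbp2 and Smarca4, named after their values were seen, made up the other calls at both times, with a log2FC at 12 h of 1.00, 0.55, 0.76 and 0.39.

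Snail protein is short-lived and its stability is set by kinases, F-box proteins and deubiquitinases, of which 12 of 13 genes were tested. At 12 h, 5 rose and 1 fell, against 21.8% and 21.5% of all genes tested. Usp27x, a deubiquitinase of Snail, had a log2FC of 0.88, the F-box protein Fbxw7 of 0.69 and the kinase Lats2 of 0.68, and Fbxl14 (0.52) and Fbxo45 (0.38), named after their values were seen, were the others that rose, while Ctdsp1, a phosphatase that removes phosphates from Snail, fell by 0.67 on the log2 scale. Fbxl5 (-0.36) and Cops2 (-0.34) were not called, but were with the replicate block (adjusted p = 0.00819 and 0.0366). At 2 h, when 9.91% of all genes were called higher, Fbxw7 was the sole gene called (log2FC 0.82, adjusted p = 0.00734), joined by Lats2 with the replicate block (adjusted p = 0.0483). The call of Fbxw7 was lost without vehicle replicate 2, and at 12 h 1 was called higher without vehicle replicate 2 or the 12 h replicate 1 and 3 without vehicle replicate 1 or the 12 h replicate 2.

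Of 10 factors that oppose EMT 5 were tested, and at 12 h 3 were lower than with vehicle, against 21.5% of all genes tested, and 0 higher. Ehf (log2FC -3.36), Elf3 (-1.27) and Klf5 (-1.27), all factors of epithelial differentiation, fell, whereas Klf4 (-0.30, adjusted p = 0.124) and Grhl1 (-0.01) were not called. Grhl1 was called higher at 2 h (log2FC 1.08, adjusted p = 0.0311), a call lost when any library but the 2 h replicate 2 was left out. With the replicate block, Klf4 was called higher (adjusted p = 0.0436) and Ehf lower (adjusted p = 0.0351) at 2 h. All 5 were lower at 12 h than at 2 h, against 18.9% of all genes. Fewer of them were called without either 12 h replicate, and so were fewer of all genes. Ovol1, Ovol2, Grhl2, Grhl3 and Elf5 were below the filter.

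Of 24 epithelial genes described as repressed by these factors, 15 were tested, and at 12 h 5 were higher and 4 lower, against 21.8% and 21.5% of all genes tested. The tight junction gene Tjp3 (log2FC -2.35), the polarity gene Crb3 (-2.01) and Krt19 (-1.95) were the most reduced, and Llgl2 (-1.70), a polarity gene, fell too. The claudin gene Cldn4 rose from 2 and 1 counts with vehicle to 484 and 286 at 2 h and 1728 and 1097 at 12 h. Cldn4 passed the filter only through treated libraries, so that it had to be higher there to be tested. Krt8 (1.63) and Jup (1.56), the gene of plakoglobin, Krt18 (1.53) and the desmoplakin gene Dsp (0.65) rose too at 12 h. Llgl2 and Dsp were named after their values were seen. E-cadherin (Cdh1), the textbook target, had 421 and 363 CPM in the vehicle libraries, 608 and 451 CPM at 2 h and 407 and 337 CPM at 12 h. Its 12 h libraries overlapped the vehicle ones, with a log2FC of -0.07 (95% interval -0.50 to 0.35) at 12 h, and of 0.44 at 2 h (adjusted p = 0.159, or 0.0111 under the replicate block). With the block, 7 of the 15 were called lower at 12 h, when 3052 of all 11080 genes were, beside 2385 without it. At 2 h, 3 were higher (Cldn4, Jup and Krt8) and 2 lower (Crb3 and Llgl2), against 9.91% and 5.25% of all genes. The block added Cdh1 to those higher and Tjp3 (log2FC -0.75, adjusted p = 0.0599, or 0.00943 under the block) to those lower. Without the block, the 2 became 4 without the 2 h replicate 1 and 1 without any other library.

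Of 22 mesenchymal genes 10 were tested, of which 3 rose at 2 h and 7 at 12 h, against 9.91% and 21.8% of all genes, and 2 fell at 12 h, against 21.5%. With the replicate block 6 rose at 2 h, among them Tnc with an adjusted p of 0.0149. The block called 1813 of all 11080 genes higher at 2 h, beside 1098 without it. Tenascin C (Tnc, log2FC 4.88), fibronectin (Fn1, 3.84) and collagen Col1a1 (3.51) rose most at 12 h, and Col6a1 (-2.14) and S100a4 (-1.13) fell. The calls at 2 h were Fn1, Col1a1 and Col5a1 (the last named after its values were seen). Col1a1, at 11 and 20 counts with vehicle, passed the filter only through treated libraries. It thus had to be higher there to be tested, and the counts of this list are a description only. Sparc had a log2FC of 0.33 at 12 h (adjusted p = 0.0722, or 0.0376 under the replicate block). The 2 h count was 5 without the 2 h replicate 1. Acta2, Tagln, Mmp9, Fap and Thy1 were below the filter and were not tested. Tagln had 0 and 1 counts with vehicle, 10 and 8 at 2 h and 57 and 38 at 12 h. Mmp9 had 0 counts with vehicle and at 2 h and 6 and 9 at 12 h, and Acta2 had 4 and 4 with vehicle and 15 and 11 at 12 h. Fap and Thy1 had at most 1 count per library.

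As a check of the treatment, 7 of 8 direct TGFβ response genes passed the filter and all 7 rose at both times, against 9.91% and 21.8% of all genes tested. Ctgf (log2FC 3.06 at 2 h and 6.13 at 12 h) kept rising after 2 h, as the Zeb genes did. Pmepa1 (3.59 and 3.83), Skil (2.09 and 2.21), Smad7 (2.07 and 2.65) and Tgif1 (1.13 and 1.61) were not called between the times, as Snai1 and Hmga2 were not, although Smad7 and Tgif1 were with the replicate block (adjusted p = 0.00470 and 0.00368). Ski, a Smad corepressor, was at 2.90 and 2.04 and fell from 2 h to 12 h (log2FC -0.86, adjusted p = 0.00133). Bambi, at 4 to 41 counts, was below the filter.

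**Figure D4:**
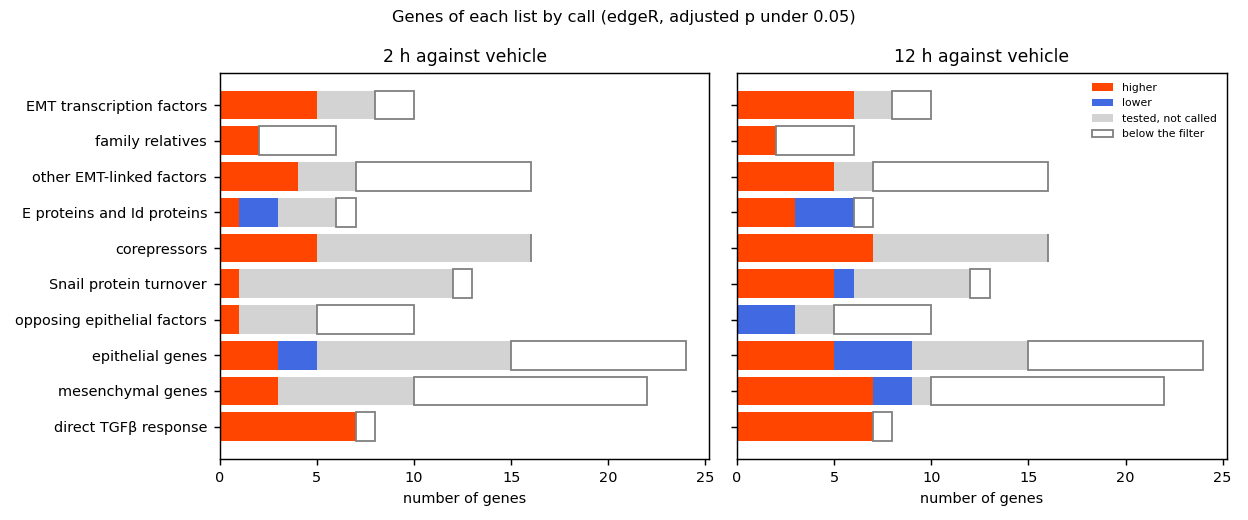
Number of genes per list that were called higher, called lower, tested without a call or below the filter, at 2 h (left) and 12 h (right) against vehicle. The EMT factors have 5 genes higher at 2 h and 6 at 12 h with none lower, while the epithelial genes hold calls in both directions at both times.

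Genes whose profile over the 6 libraries was closest to that of a member were found by the Euclidean distance between log2 CPM centred on each gene's mean, among the tested genes that are no members. The closest matches were 3110082I17Rik to Zeb1 (distance 0.111) and Irgm1, an interferon-inducible GTPase, to Zeb2 (0.116), followed by Lrfn4 and Rhoc for Zeb1 and Msantd3 and the Notch ligand Dll1 for Zeb2. Snai1 had no close match, since its nearest genes, Arid5a, Spsb1 and Sned1, were 0.728 to 1.03 away, with a log2FC at 2 h of 4.47, 5.26 and 3.79. For Hmga2 they were Zbed5, Tnfrsf12a and Tgif1 (0.437 to 0.495) and for Sox4 Gcnt2, Vgll4 and Sh3bgrl2 (0.370 to 0.442). For Snai3 they were Ankrd13b, A430105I19Rik and Gm5434 (0.257 to 0.275), for Snai2 they included Eif3b and Sik2 (up to 0.254) and for Twist2 Ston1, Dlg5 and Selenoh (0.314 to 0.357).

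In the order of start sites on NCBIM37, the counted genes next to the members on either side were 20, of which 12 were tested. At 2 h, 2 of these were called, both lower (Zfp438 beside Zeb1 and Asb1 beside Twist2), against 5.25% of all genes called lower. At 12 h, 3 were called higher (Rnf166 beside Snai3, Hdac4 beside Twist2 and Msrb3 beside Hmga2) and 3 lower (Mvd beside Snai3, Acvr2a beside Zeb2 and Asb1), shares near the 21.8% and 21.5% of all genes. Snai1 lies between Spata2 and Ube2v1, with starts 45.3 kb and 93.9 kb away and a log2FC at 2 h of 0.18 (adjusted p = 0.446) and 0.28 (adjusted p = 0.539). Of the adjacent counted genes of Zeb2 and Sox4, those tested were Acvr2a and Cdkal1, with starts 3697 kb and 902 kb away. Genes beyond the adjacent one on each side were not examined, so tested genes may lie closer. Zeb1, at chr18:5591858-5775465 on the plus strand, has Zfp438 257 kb away and, beside its start, Gm10125 with 5 counts in all. These neighbors were named after their values were seen.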

How the data were processed

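Stranded total RNA of 6 NMuMG libraries was analysed. According to the methods of the study and the submitters' processing notes, after read filtering the authors aligned to mm9 with the subjunc function of Subread, kept uniquely mapped reads, removed duplicates with SAMtools 0.1.19 and counted reads by strand over exons of UCSC genes with featureCounts. What they deposited is a table of raw read counts for 21240 genes, not normalized. Unique mapping can lose reads of genes with near-identical copies, and removal of duplicates can lower the counts of abundant short genes. All 6 columns of the table belong to the 6 samples, and groups were taken from the sample titles.

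Counts were fitted with edgeR 4.0.16 in R 4.3.3 (quasi-likelihood, TMM factors, filter of 2 CPM or more in 2 or more libraries, 3 groups in a single fit, two-sided, Benjamini-Hochberg within each contrast). A call is an adjusted p under 0.05. log2FC are the fitted values and standard errors are their size divided by the square root of F. CPM are counts divided by TMM-scaled library sizes in units of 1000000, and 0.25 CPM was added before logarithms for distances and replicate differences. Counting intervals are exact binomial (95%) and cover counting error only; p-values measure the spread between 2 replicates per group that the labels call biological. The fits were tested on simulated data.

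Exon lengths and positions came from GENCODE on NCBIM37 (the build mm9), which placed 20562 of the counted genes. Promoter windows of 300 bases came from RefSeq (GRCm38.p6) and were placed on NCBIM37 by exact match. Snai2, Snai3 and Zeb1 had no window. Python 3.11.15, pandas 2.3.3 and matplotlib 3.10.9 were used.

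Deviations from the group mean were correlated over genes among libraries that share a replicate number (vehicle with 2 h 0.708, vehicle with 12 h 0.263, 2 h with 12 h 0.392). The study names no pairing, so the main fit has none, and the fit with the replicate block is given where it changes a call against vehicle of a named gene. Alternatives were limma-voom (limma 3.58.1), DESeq2 1.42.0, DESeq2 size factors, total counts, the replicate block, no filter, a minimum of 10 counts in each library, a fit of only the 2 groups compared, the longest transcript as length, a prior count of 2 and leaving out each library. Leaving out 1 library leaves a single sample in that group. Fewer of all genes were called without a vehicle or a 12 h library, so the shares of the main fit do not apply to counts of calls there. Nor do they apply to counts with the replicate block, which called 1813 genes higher and 1409 lower at 2 h and 3075 and 3052 at 12 h.

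The members, gene lists and tests were chosen with earlier results of these data known. Named are all 10 members, the up to 3 genes with the largest and 3 with the smallest log2FC at 12 h of each list, all direct TGFβ response genes and epithelial markers, and the 3 genes closest to each member; other names were chosen after their values were seen. Some genes that this rule names are not reported here.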

Additional observations from a re-analysis of the deposited data

Results flagged for a closer look

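Zeb1, Zeb2 and Twist2 are set apart because the test of 12 h against 2 h, which is the test of the difference between their changes at the 2 times, passed the threshold. The log2FC of 12 h against 2 h was 0.93 for Zeb1 (adjusted p = 0.00143, edgeR's quasi-likelihood test) and 1.40 for Zeb2 (adjusted p = 0.000553), with both 12 h libraries above both 2 h libraries for each gene. For Twist2 it was -1.08 (adjusted p = 0.0386), with both 12 h libraries below both 2 h libraries, but this call was lost in 7 of 15 alternatives, among them DESeq2 (adjusted p = 0.0516) and leaving out any library but the 2 h replicate 1, whereas those of the Zeb genes held in all 15. No group had the 4 samples that a search for outlying libraries needs.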

How the results depend on the processing

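The count of members higher at 12 h was 5 with at least 10 counts in every library, which removes Snai1, and 6 in every other alternative. The count higher at 2 h, 5, was 6 with DESeq2 or no filter on low counts and 2 when only the 2 groups compared were fitted. These fits called 1297, 1121 and 635 of all genes higher at 2 h, beside 1098 in the main fit. The count also varied when each library was left out, as did the calls over all genes. Leaving out each library gave 6 to 6 members higher at 12 h, 0 to 0 lower at 2 h, 0 to 0 lower at 12 h and 2 to 4 changed between 2 h and 12 h. The replicate block, with 6 members higher at 2 h, 6 at 12 h and 4 changed between the times, changed no call of a member other than Snai3, at 2 h and between the times. Of the members' values, those of 12 h against 2 h changed direction for 3 genes, each where 1 library was left out. The range was -0.0068 (without the 12 h replicate 1) to 0.10 for Snai2, -0.19 (without the 2 h replicate 2; -0.03 without the 12 h replicate 1) to 0.61 for Hmga2 and -0.41 to 0.31 (without the 2 h replicate 1) for Sox4, and no reversed value was called. The cause was not tested. No filter on low counts gave 6 mesenchymal genes higher at 2 h and 11 at 12 h, beside 1121 and 2478 of all 16115 genes. With total counts 2 corepressors and 2 turnover genes were lower at 12 h, beside 3045 of all 11080 genes. Snai2 and Twist2 had 27 to 101 counts per library and Prrx1 14 to 34. For counting error alone the interval of the ratio to vehicle was 1.25 to 2.14 at 2 h and 0.571 to 1.06 at 12 h for Twist2, and 0.419 to 0.929 and 0.325 to 0.751 for Prrx1. At 0 to 2 counts per library, no change of Twist1 was detectable at this depth.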
